A study of Rattus norvegicus with 10 samples.

Results

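Translation factors are the proteins that load messenger RNA onto ribosomes, find the start codon, add amino acids and release the finished chain. Their genes were taken from a study of rat nucleus pulposus cells, which fill the soft centre of the disc between neighbouring vertebrae. All probesets named for an initiation factor (Eif1 to Eif6) or an elongation factor (Eef1 or Eef2) were used, without the Eif2ak kinases and Eef1e1, and the release, recycling and helper genes Etf1, Gspt1, Abce1 and Dhps were added. This gave 54 probesets for 54 genes, out of 23188 probesets tested and 15049 with a gene symbol. Pabpc1, which the same rule asks for, has no named probeset here, and neither have Eif1, Eif2a, Eif3g, Eif3k, Eif4g1 and Eif5, so these are not analysed here.

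The tested cells were transduced with a lentivirus carrying a short hairpin RNA against Bnip3 (ShBNIP3, 5 arrays), and the controls with a lentivirus carrying a control hairpin in the pLKO.1 vector (ShCtrl, 5 arrays). All cells came from male Sprague Dawley rats that weighed 300 g and were 3 to 4 months old, and RNA was taken 4 days after transduction. Bnip3 encodes a mitophagy receptor, a mitochondrial surface protein by which damaged mitochondria are taken up for breakdown. The labels give neither the number of hairpin sequences nor the cultures or rats behind each array. The p-values therefore cover only the spread among these arrays, and that spread may be technical. Arrays are called by their number in the titles, 1 to 5 for ShCtrl and 6 to 10 for ShBNIP3.

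Levels are log2 values, 1 per probeset and array, as the authors normalized them. Differences are ShBNIP3 minus ShCtrl on that scale, with the standard error (SE) and the Benjamini-Hochberg adjusted p of a limma fit over all tested probesets, and a gene is called when its adjusted p is under 0.05. Bnip3 was at 11.39 ± 0.77 in ShBNIP3 and 14.61 ± 0.79 in ShCtrl (SD, n = 5 each), which leaves 10.8% of the control level (log2 -3.21, SE 0.40, exact two-sided permutation p = 0.0079, the smallest that 5 against 5 arrays allow). ShCtrl array 4 and ShBNIP3 array 10 were the arrays least like the rest of their groups, with a mean correlation to them of 0.983 and 0.986, where the other 8 lay at 0.992. Of the disc markers, Acan and Col2a1 were above background in both groups, but Krt8, Krt18, Krt19 and Tbxt, which mark nucleus pulposus and its notochordal origin, were at background on all arrays. Of 6 macrophage and leukocyte markers 5 were at background on all arrays, with the exception of Cd68, at 8.59 ± 0.43 in ShBNIP3 and 7.09 ± 0.53 in ShCtrl (SD, n = 5 each). The mean level of these 6 markers spanned 4.11 to 4.60 over ShBNIP3 arrays and 3.85 to 4.28 over ShCtrl arrays, and the part of such cells in the results was not tested. All 4 endothelial and all 3 erythroid markers were at background. Some markers of disc cells themselves moved with the groups. Of 11 measured nucleus pulposus markers 3 fell (27.3%), 0 rose and 8 did not pass, among them Acan (limma adjusted p = 0.19). Those that fell were Bnip3 itself, the target of the hairpin, Car3 (log2 -1.29, limma adjusted p = 0.0048) and Col2a1 (log2 -0.67, limma adjusted p = 0.0133). Of 4 annulus and fibroblast markers 2 fell and 0 rose, Fmod (log2 -2.37, limma adjusted p = 0.000861) and Col1a1 (log2 -0.40, limma adjusted p = 0.016). Of all tested probesets 7.87% were called lower. Both marker lists are small, and nothing is read from their shares. The mean level of the nucleus pulposus list spanned 7.66 to 7.93 over ShBNIP3 arrays and 8.23 to 9.20 over ShCtrl arrays. This list holds Bnip3, so part of that gap is the knockdown itself. The 9.20 is from ShCtrl array 4, where Bnip3 (15.97), Slc2a1 (16.91) and Car12 (9.41) had their highest levels. The annulus and fibroblast list spanned 10.05 to 10.74 over ShBNIP3 arrays and 11.04 to 11.41 over ShCtrl arrays. The part of these markers in the results on translation factors was not tested. In bulk RNA, fewer cells of a type and less RNA per cell cannot be told apart.

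In the textbook account of initiation, eIF2 brings the initiator tRNA to the small ribosomal subunit, and eIF2B, its exchange factor, reloads eIF2 with GTP. The cap-binding complex eIF4F, made of a cap-binding protein (eIF4E), a scaffold (eIF4G) and an RNA helicase (eIF4A), recruits the mRNA, and the many-subunit eIF3 links it to the ribosome. eIF1A helps the scanning ribosome pick the start codon, and eIF5B joins the large subunit. Elongation then runs on eEF1, which delivers the charged tRNAs, and eEF2, which moves the ribosome along. The eIF4E-binding proteins and the kinase of eEF2 are among the main brakes on this machinery under low energy and low nutrients.

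Of the 54 translation factor genes, 16 changed (29.6%), where 15.5% of all tested probesets did. There were 6 rises, 11.1% of the genes, against 7.61% of all probesets and 8.87% of those with a gene symbol. There were 10 falls, 18.5%, against 7.87% of all probesets and 8.27% of those with a symbol, and 17.1% of probesets with a symbol were called in either direction. The array holds many dim probesets, while 51 of the 54 genes were brighter than background on average, so their share has also to be read against bright probesets. In a fit of the 10757 probesets brighter than background, 35.3% were called, 17.9% higher and 17.4% lower. Of the 51 translation factor genes in that fit 21 were called (41.2%), 9 higher and 12 lower, which is near the background of that fit. The median difference of the 54 genes was 0.00, and that of all tested probesets 0.02, while the median absolute difference was 0.29 for the 54 genes, 0.19 for all probesets and 0.32 for the bright ones. Changes were mostly modest in size. A called change of at least 2-fold was seen in 4 genes, a rise of Eif4g3 and falls of Eif3f, Eef2k and Eif1ax (7.41%, against 4.18% of all probesets). The share of such changes over bright probesets alone was not taken, so no excess is read from this count.

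**Figure D1:**
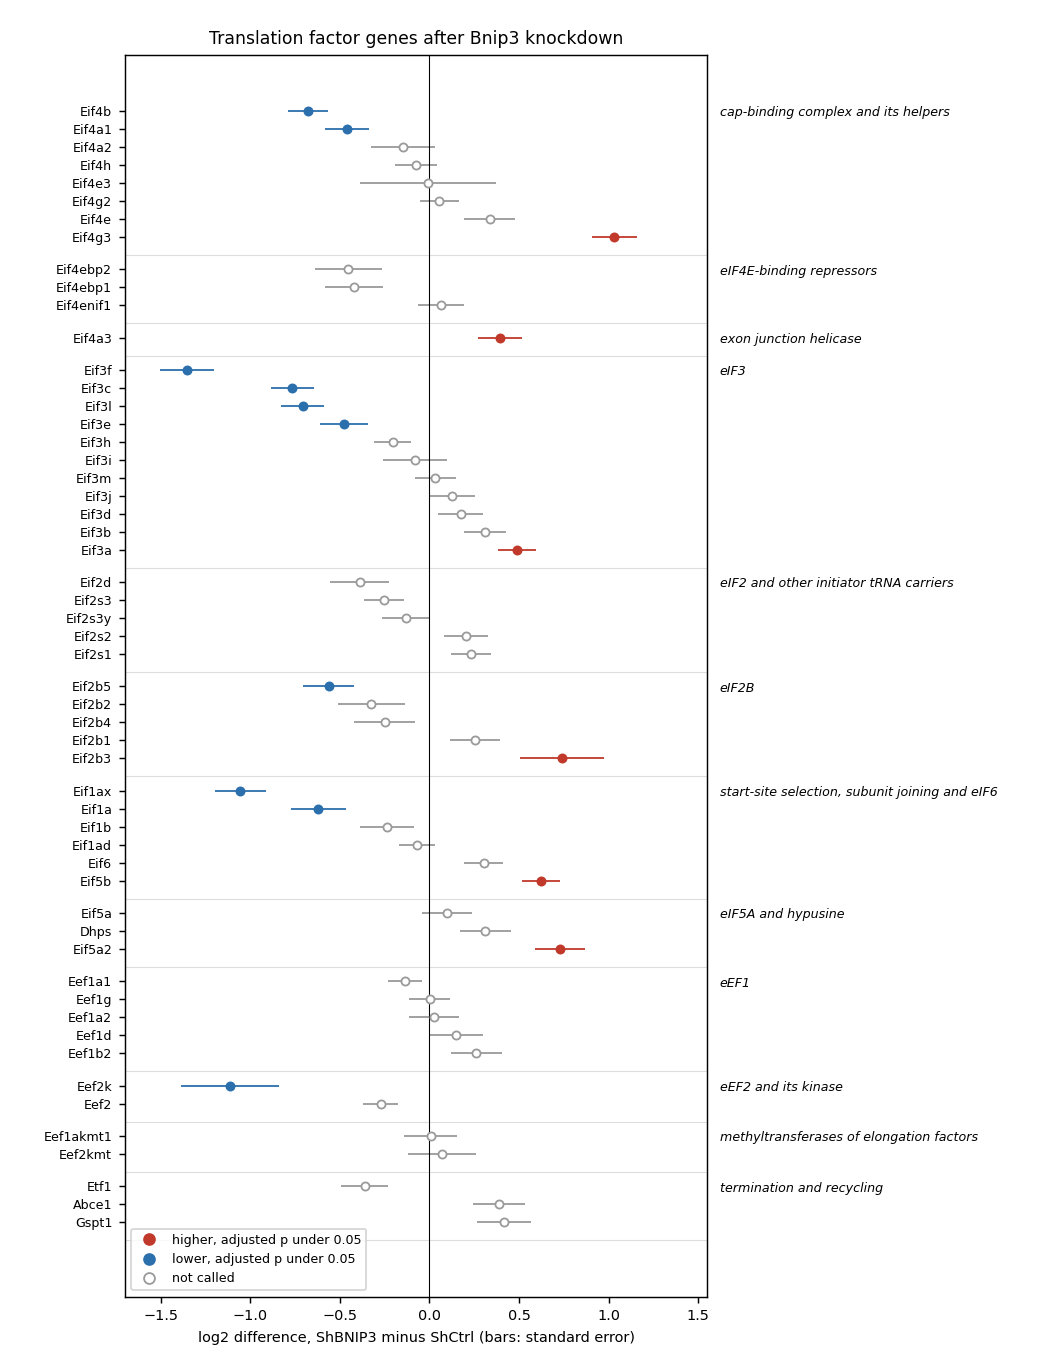
Log2 differences of the 54 translation factor genes (x axis, ShBNIP3 minus ShCtrl, bars are standard errors) by complex, with filled points for genes called at an adjusted p under 0.05. The 16 called genes are spread over 7 of the 12 groups, and eIF3 runs from -1.36 for Eif3f to 0.49 for Eif3a.

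eIF3 held the largest fall and was split between its subunits. Of 11 measured subunit genes, 4 fell (Eif3f, Eif3c, Eif3l and Eif3e), 1 rose (Eif3a) and 6 did not pass the test, with a median difference of -0.08. That is 36.4% lower and 9.09% higher, against 7.87% and 7.61% of all tested probesets. In the fit of bright probesets, which also called Eif3b, the background was 17.4% lower and 17.9% higher. No complex has more than 11 measured genes, and nothing is read from the share of a complex. Eif3f, a subunit with a deubiquitinase-like MPN domain, stood at 11.16, 11.42, 11.62, 11.32 and 11.98 on ShBNIP3 arrays 6 to 10, against 12.88, 12.76, 12.79, 12.83 and 13.00 on ShCtrl arrays 1 to 5. The groups were far apart, with array 10 the highest of the ShBNIP3 arrays. The fall was 2.56-fold (log2 -1.36, SE 0.15, limma adjusted p = 7.84e-05).

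Eif3c, a core scaffold subunit, read 12.73, 12.43, 12.60, 12.50 and 12.79 in ShBNIP3, against 13.27, 13.20, 13.48, 13.38 and 13.55 in ShCtrl. Its groups did not overlap, and it fell 1.70-fold (log2 -0.77, SE 0.12, limma adjusted p = 0.000931). Eif3l, a peripheral subunit with a PCI domain, read 11.80, 11.90, 11.93, 12.14 and 12.21 in ShBNIP3, against 12.60, 12.67, 12.59, 12.85 and 12.80 in ShCtrl. Its groups were also separate, and it fell 1.63-fold (log2 -0.71, SE 0.12, limma adjusted p = 0.00154).

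Eif3e, also a PCI subunit, fell 1.39-fold (log2 -0.48, SE 0.13, limma adjusted p = 0.0266). Its groups overlapped, since ShBNIP3 array 10 (12.69) lay above ShCtrl array 5 (12.65). Its call held in 5 of 10 fits that left out 1 array, with an adjusted p of up to 0.0698. The chromosome in the array identifier of the Eif3e probeset differs from the one RefSeq gives for the gene, which holds for 68 of 14829 named probesets (0.459%). The same is true of Eif3h, so signal from another copy of these genes cannot be told apart from the gene itself.

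Eif3a, the largest subunit and the base on which the complex is built, moved the other way. Its levels were 15.05, 15.06, 15.19, 15.08 and 14.99 in ShBNIP3, against 14.38, 14.62, 14.54, 14.72 and 14.65 in ShCtrl. All ShBNIP3 arrays were above all ShCtrl arrays, and the rise was 1.40-fold (log2 0.49, SE 0.11, limma adjusted p = 0.00791). Eif3b, the RNA-binding partner of Eif3a, differed by 0.31 (SE 0.12, limma adjusted p = 0.102) and was called only in the fit of bright probesets. Eif3h differed by -0.21 (SE 0.10, limma adjusted p = 0.224) with groups that did not overlap, and Eif3d, Eif3i, Eif3j and Eif3m lay between -0.08 and 0.17.

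**Figure D2:**
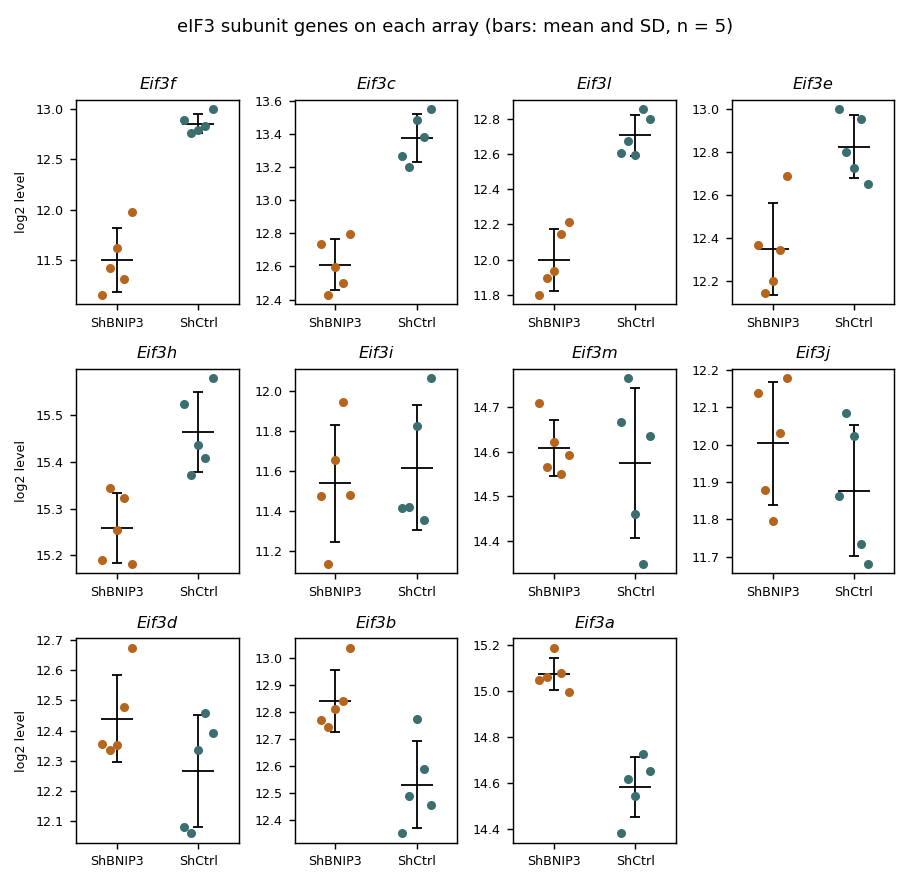
Log2 levels of the 11 measured eIF3 subunit genes on each array, with ShBNIP3 left of ShCtrl in every panel, each panel with its own y axis, and bars for the mean and SD (n = 5). Eif3f, Eif3c and Eif3l are lower on all ShBNIP3 arrays, Eif3a is higher on all of them, and Eif3i, Eif3j and Eif3m overlap broadly.

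In the cap-binding complex, the scaffold paralog Eif4g3 rose while a helicase and its cofactor fell. Of 8 measured genes 1 rose (12.5%, against 7.61% of all tested probesets), 2 fell (25.0%, against 7.87%) and 5 did not pass, with a median difference of -0.04. Of bright probesets 17.9% were called higher and 17.4% lower in their own fit. Eif4g3, which encodes eIF4GII, read 9.62, 9.76, 9.68, 9.53 and 9.87 in ShBNIP3, against 8.79, 8.91, 8.42, 8.67 and 8.53 in ShCtrl. The lowest ShBNIP3 array lay well above the highest ShCtrl array. This 2.04-fold rise (log2 1.03, SE 0.13, limma adjusted p = 0.000157) was the largest among the 54 genes.

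Eif4b, which stimulates the helicase and is a target of S6 kinase, read 12.65, 12.79, 12.91, 13.06 and 12.94 in ShBNIP3, against 13.65, 13.56, 13.55, 13.41 and 13.56 in ShCtrl. The groups did not overlap, and Eif4b fell 1.60-fold (log2 -0.68, SE 0.11, limma adjusted p = 0.00143). Eif4a1, the main helicase, read 14.86, 14.96, 14.91, 14.79 and 14.72 in ShBNIP3, against 15.12, 15.10, 15.33, 15.57 and 15.43 in ShCtrl. It fell 1.38-fold with separate groups (log2 -0.46, SE 0.12, limma adjusted p = 0.0223), but its adjusted p was 0.0572 without ShCtrl array 4 and ShBNIP3 array 10.

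The cap-binding protein gene Eif4e was at 10.53 ± 0.14 in ShBNIP3 and 10.20 ± 0.27 in ShCtrl (SD, n = 5 each), a difference of 0.34 (SE 0.14, limma adjusted p = 0.146). Eif4a2, a close paralog of Eif4a1, differed by -0.15, the helicase cofactor Eif4h by -0.08 and Eif4g2, a scaffold that lacks the eIF4E site, by 0.06, none of them called. Whether the probes keep Eif4a1 and Eif4a2 apart was not tested. Eif4e3, a cap-binding paralog, was under background on 7 of 10 arrays and stood out on ShCtrl array 4 alone, at 8.41.

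The repressors of eIF4E did not pass the test. Eif4ebp1, the best known of them, read 14.30, 14.25, 14.22, 14.36 and 13.58 in ShBNIP3, against 14.40, 14.36, 14.73, 14.54 and 14.79 in ShCtrl. The groups met at 14.36, and array 10 lay far below the other ShBNIP3 arrays. The difference was -0.42 (SE 0.16, limma adjusted p = 0.109), or -0.28 without ShBNIP3 array 10.

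Its paralog Eif4ebp2 read 8.31, 8.60, 7.82, 8.40 and 8.73 in ShBNIP3, against 9.20, 8.97, 8.78, 8.43 and 8.76 in ShCtrl. The overlap was due to ShCtrl array 4 alone, and the difference of -0.45 (SE 0.19, limma adjusted p = 0.131) was -0.64 with an adjusted p of 0.0213 without ShCtrl array 4 and ShBNIP3 array 10. Eif4enif1, which carries eIF4E into the nucleus, differed by 0.06. Eif4a3, a helicase of the same family that works in the exon junction complex and not in initiation, rose 1.31-fold with groups that did not overlap (log2 0.39, SE 0.12, limma adjusted p = 0.0442). Its call was lost in 8 of 10 fits that left out 1 array, with an adjusted p of up to 0.11.

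Start-site factors changed in both directions. Of 6 genes for start-site selection, subunit joining and eIF6, 1 rose, 2 fell and 3 did not pass, with a median difference of -0.15. That is 16.7% higher and 33.3% lower, against 7.61% and 7.87% of all tested probesets. In the fit of bright probesets, which also called Eif6, the background was 17.9% higher and 17.4% lower. Eif1ax, the X-linked gene for eIF1A, read 11.48, 11.22, 11.37, 11.60 and 11.67 in ShBNIP3, against 12.67, 12.76, 12.48, 12.15 and 12.54 in ShCtrl. The groups were separate, with ShCtrl array 4 the nearest to ShBNIP3, and Eif1ax fell 2.08-fold (log2 -1.06, SE 0.14, limma adjusted p = 0.000304).

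Eif1a, an autosomal gene for the same factor, read 13.49, 13.35, 12.99, 13.00 and 13.59 in ShBNIP3, against 13.80, 13.96, 13.86, 14.21 and 13.69 in ShCtrl. It fell 1.54-fold, also with separate groups (log2 -0.62, SE 0.15, limma adjusted p = 0.015). The Eif1a and Eif1ax transcripts are much alike, and whether the array keeps them apart was not tested, so the pair may not be independent.

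Eif5b, the GTPase that joins the subunits, read 13.00, 12.91, 12.99, 12.78 and 12.84 in ShBNIP3, against 12.21, 12.40, 12.31, 12.34 and 12.13 in ShCtrl. The arrays of each group lay close together and the groups apart, a rise of 1.54-fold (log2 0.62, SE 0.11, limma adjusted p = 0.00169). Eif6, which keeps free large subunits from joining, was at 12.87 ± 0.09 in ShBNIP3 and 12.57 ± 0.13 in ShCtrl (SD, n = 5 each). Its groups did not overlap but it was not called (difference 0.30, SE 0.11, limma adjusted p = 0.0845). Eif1b and Eif1ad differed by -0.23 and -0.07 and were not called.

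No gene of eIF2 itself was called, while its exchange factor eIF2B had 1 gene called in each direction. Of 5 genes for eIF2 and other carriers of initiator tRNA, 0 passed the limma test. At an unadjusted p under 0.05 there were 2, both lower (Eif2d and Eif2s3). The share of all probesets under that p was not taken, so nothing is read from this count. Eif2s1, the alpha subunit that stress kinases phosphorylate, read 13.36, 13.38, 13.17, 13.10 and 13.21 in ShBNIP3, against 13.15, 12.92, 13.07, 13.03 and 12.89 in ShCtrl. The groups overlapped at their edges, and the difference was 0.23 (SE 0.11, limma adjusted p = 0.201). The beta subunit gene Eif2s2 differed by 0.20, the gamma subunit gene Eif2s3 by -0.25, its Y-linked copy Eif2s3y by -0.13 and Eif2d by -0.39.

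Of the 5 eIF2B subunit genes 1 fell, 1 rose and 3 did not pass, with a median difference of -0.25. Eif2b5, the catalytic subunit, read 11.18, 10.37, 10.83, 10.72 and 10.86 in ShBNIP3, against 11.38, 11.33, 11.28, 11.46 and 11.32 in ShCtrl. Every ShBNIP3 array was below every ShCtrl array, and the ShBNIP3 arrays were more scattered. Eif2b5 fell 1.48-fold (log2 -0.56, SE 0.14, limma adjusted p = 0.0173).

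Eif2b3, which encodes the gamma subunit, the partner of the catalytic one, read 11.17, 10.75, 11.03, 10.86 and 11.40 in ShBNIP3, against 10.08, 10.03, 10.24, 11.25 and 9.91 in ShCtrl. ShCtrl array 4 lay among the ShBNIP3 arrays and the other 4 ShCtrl arrays below all of them. The rise of 1.67-fold (log2 0.74, SE 0.23, limma adjusted p = 0.0489) was log2 0.98 with an adjusted p of 0.000666 without ShCtrl array 4, and the adjusted p was 0.0549 to 0.119 in the 9 fits that left out another array. Eif2b1, Eif2b2 and Eif2b4 differed by 0.25, -0.32 and -0.25. Of these, Eif2b2 was called lower without ShCtrl array 4 and ShBNIP3 array 10 (log2 -0.49, limma adjusted p = 0.0301).

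Among the elongation factors the kinase of eEF2 fell and the eEF1 subunits were not called. Eef2k, the kinase that inactivates eEF2, read 9.61, 9.74, 9.05, 9.09 and 8.44 in ShBNIP3, against 10.70, 10.66, 10.45, 9.45 and 10.24 in ShCtrl. ShCtrl array 4 lay below ShBNIP3 arrays 6 and 7, and the other 4 ShCtrl arrays were above all ShBNIP3 arrays. Eef2k fell 2.16-fold (log2 -1.11, SE 0.27, limma adjusted p = 0.0149). Without arrays 4 and 10 the difference was -1.14 with an adjusted p of 0.000855.

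Eef2, the translocase, read 17.46, 17.43, 17.52, 17.58 and 17.59 in ShBNIP3, against 17.78, 17.76, 17.79, 17.78 and 17.84 in ShCtrl. The groups were clearly separate and each was tight, but the difference was small, -0.27 (SE 0.10, limma adjusted p = 0.0826), and it depended on the fit and the scaling. Eef2 was called with a trended and robust variance and in the fit of bright probesets, while after quantile normalization the difference was -0.14 (limma adjusted p = 0.416). Eef1a1, which delivers the charged tRNAs, was also separate by a small margin, with 18.81, 18.76, 18.68, 18.79 and 18.74 in ShBNIP3, against 18.88, 18.87, 18.94, 18.90 and 18.87 in ShCtrl. Its groups did not overlap and the difference was -0.13 (SE 0.10, limma adjusted p = 0.427).

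The exchange factor subunit genes Eef1b2, Eef1d and Eef1g differed by 0.26, 0.15 and 0.00. Eef1a2, the muscle and neuron form of eEF1A, was at background on all arrays, as was the methyltransferase gene Eef2kmt, and Eef1akmt1 differed by 0.01. Eif5a2, the less common paralog of the hypusine-bearing factor eIF5A that helps ribosomes through difficult peptide bonds, read 10.82, 10.65, 10.96, 10.96 and 11.31 in ShBNIP3, against 10.11, 10.44, 10.06, 10.09 and 10.36 in ShCtrl. The groups did not overlap, and Eif5a2 rose 1.66-fold (log2 0.73, SE 0.14, limma adjusted p = 0.00382).

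Eif5a itself was at 17.09 ± 0.16 in ShBNIP3 and 17.00 ± 0.24 in ShCtrl (SD, n = 5 each), a difference of 0.10 (SE 0.14, limma adjusted p = 0.734). Dhps, which makes the first step of hypusine, differed by 0.31 (SE 0.14, limma adjusted p = 0.181). That the change of Eif5a2 differs from that of Eif5a was not tested.

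**Figure D3:**
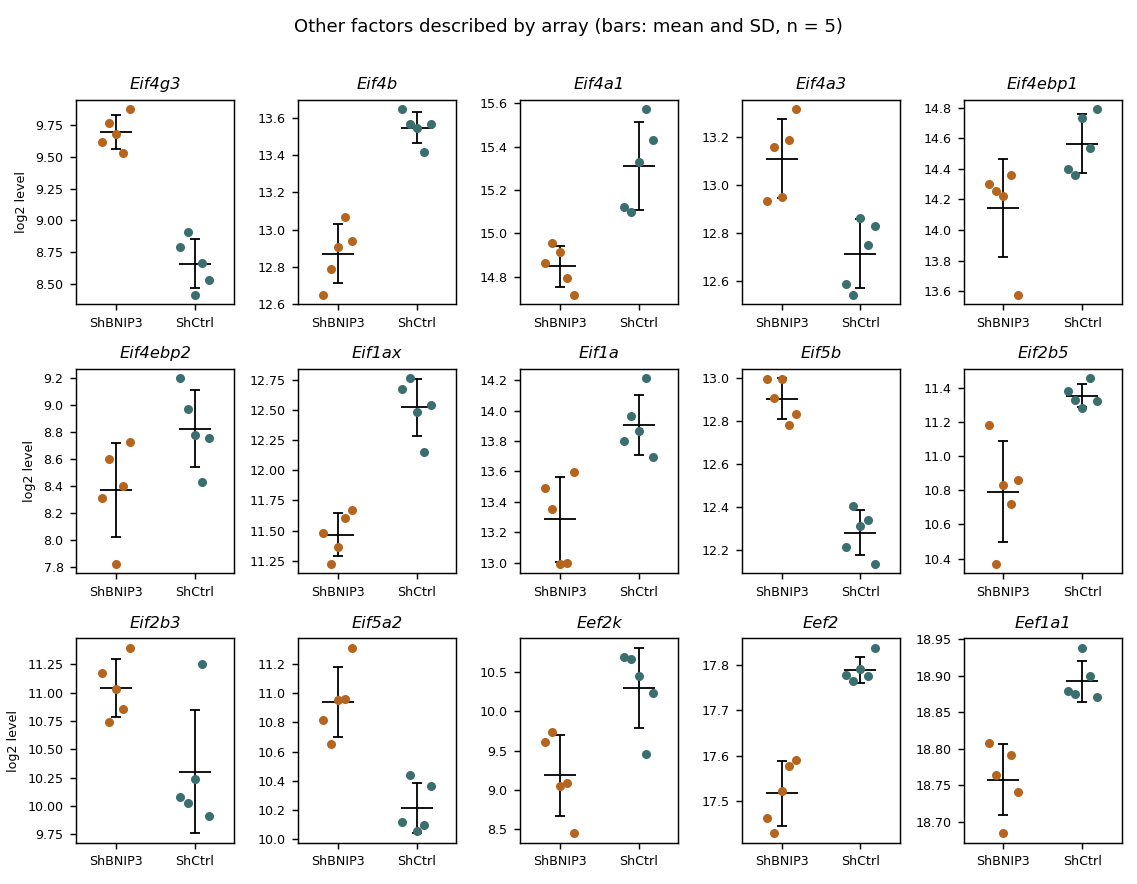
Log2 levels of 15 other translation factor genes on each array, ShBNIP3 left of ShCtrl, each panel with its own y axis, and bars for the mean and SD (n = 5). Eif4g3, Eif5b and Eif5a2 are higher on all ShBNIP3 arrays, Eif4b, Eif1ax and Eif2b5 are lower on all of them, and in Eif2b3 and Eef2k 1 ShCtrl array (array 4) lies within the range of the ShBNIP3 arrays.

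Termination and recycling genes did not pass the threshold in the fit of all probesets. Of 3 genes 0 passed the limma test. All 3 had an unadjusted p under 0.05, but the share of all probesets under it was not taken, so nothing is read from this. Gspt1, the GTPase of release, differed by 0.41 (SE 0.15, limma adjusted p = 0.0876) and Abce1, which splits the ribosome after release, by 0.39 (SE 0.15, limma adjusted p = 0.1). Etf1, the release factor that reads stop codons, read 12.86, 12.82, 12.67, 12.85 and 13.17 in ShBNIP3, against 13.22, 12.98, 13.31, 13.49 and 13.19 in ShCtrl. The groups overlapped in array 10 of ShBNIP3 and array 2 of ShCtrl, and the difference was -0.36 (SE 0.13, limma adjusted p = 0.0884). Gspt1 was called higher with a trended and robust variance, with array weights, after quantile normalization, in the fit of bright probesets, without ShCtrl array 4, and without arrays 4 and 10 (log2 0.41, limma adjusted p = 0.0278). Etf1 was called lower in the fit of bright probesets, without ShBNIP3 array 10, and without arrays 4 and 10 (log2 -0.37, limma adjusted p = 0.0483).

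Groups that did not overlap were found for 17 of the 54 genes (31.5%, against 12.9% of all tested probesets). Of the 54 genes 6 were higher in this way, where 6.6% of all probesets were, and 11 lower, where 6.29% were. The share over bright probesets alone was not taken, so no excess is read from these counts. Of the 16 called genes 13 had groups that did not overlap, the exceptions being Eif3e, Eif2b3 and Eef2k. The other 4 were Eif3h, Eif6, Eef2 and Eef1a1, with differences of 0.30 or less in size that were not called. The heat map shows the levels of the called genes array by array. These genes were called on the same arrays, so neither their separation nor the heat map is added support.

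**Figure D4:**
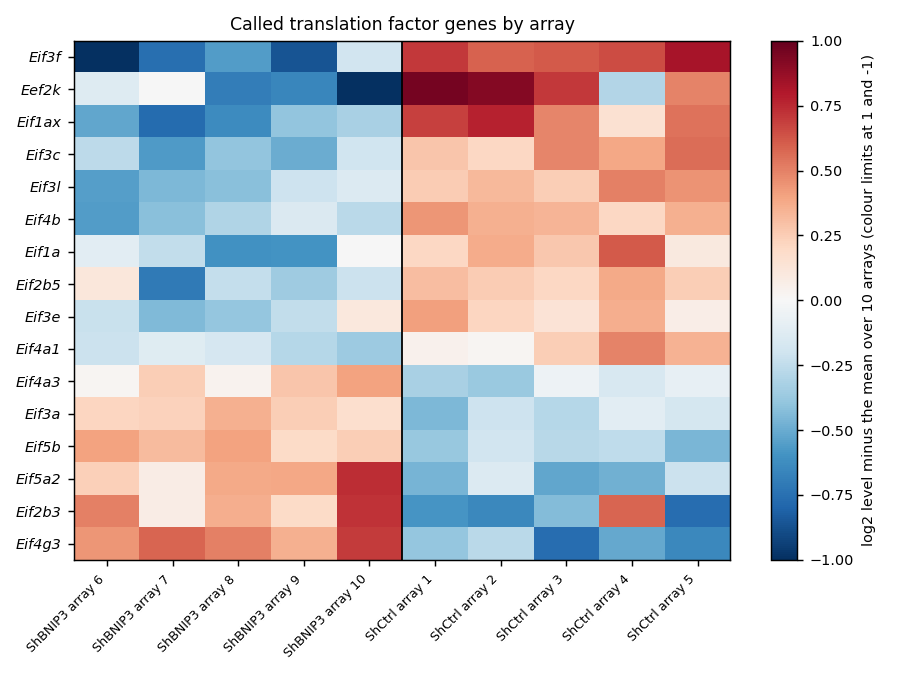
Log2 level minus the mean over all 10 arrays for the 16 called genes (rows, ordered by their difference), with ShBNIP3 arrays 6 to 10 on the left and ShCtrl arrays 1 to 5 on the right, and colours limited at 1 and -1. The 10 genes that fell are above and the 6 that rose below, and array 4 of ShCtrl departs from its group for Eef2k and Eif2b3.

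Promoters were searched for sequence elements tied to translation genes, in RefSeq (GRCr8) from 250 bases before to 50 after each start, on both strands for the first pair. A promoter was at hand for 48 of the 54 genes. CACGTG, the E-box bound by MYC and its relatives, was in 10 of the 48 (20.8%), against 8.06% of the promoters of all named probesets and 7.08% of all promoters. It was found in 2 of 6 genes that rose, in 2 of 8 that fell and in 6 of 34 not called, and so among genes of both directions. The 30 bases around it are shown for the 4 called genes, 5′ to 3′ on the strand of the gene, with the E-box in capitals.
Eif3f (chr1:172368991-172369020, + strand): caagatatgggtCACGTGgtacaaatttag
Eef2k (chr1:184824331-184824360, + strand): acccggggcagcCACGTGagcccgggcgtg
Eif3a (chr1:269918978-269919007, - strand): ccgcgagggaatCACGTGgctccttccttt
Eif5a2 (chr2:113657626-113657655, + strand): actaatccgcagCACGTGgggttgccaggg

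The core of the element bound by ATF4, TGATGNAA, was in 1 of the 48 promoters (2.08%), that of Eif2s2, against 3.06% of the promoters of named probesets. Many mRNAs of the translation machinery begin with a C and a run of pyrimidines, the TOP motif through which mTORC1 controls their translation. A C followed by at least 4 pyrimidines stood at the annotated start of 0 of 48 translation factor genes and of 23 of 66 cytosolic ribosomal protein genes (34.8%), against 2.44% of the promoters of named probesets. The windows from 15 bases before to 15 after the start are shown for Eef1a1 and Eef1b2, elongation factor genes with such a run near but not at the annotated start, with the first run in capitals.
Eef1a1 (chr8:88225055-88225084, - strand): tcgccttggacgttCTTTTTCgcaacgggt
Eef1b2 (chr9:72074076-72074105, + strand): tttccggccggtcccggCCCTTTTTCTCCC
Anywhere in that window, which was chosen after the values at the start were seen, such a run was found in 35.4% of the translation factor genes, 34.9% of all named ones and 78.8% of ribosomal protein genes.

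The translation factors can be set beside other genes of protein synthesis. Cytosolic ribosomal protein genes leaned lower as a list. Of 78 measured, 23 fell, 1 rose and 54 did not pass, so 29.5% fell, against 7.87% of all tested probesets, and the median difference was -0.20, where that of all probesets was 0.02. In the fit of bright probesets 29 of 73 fell (39.7%), against 17.4% of the bright probesets. After quantile normalization 17 of 78 fell (21.8%) with a median of -0.15, and 15 fell without ShCtrl array 1 or without ShBNIP3 array 8. Those fits without 1 array called 2872 and 2746 probesets in all, against 3590 in the main fit. The share of all probesets called lower in these alternatives was not taken. Their mean level spanned 14.28 to 14.40 over ShBNIP3 arrays and 14.54 to 14.66 over ShCtrl arrays. Rps10, a small-subunit protein gene, fell 6.11-fold (log2 -2.61, SE 0.11, limma adjusted p = 4.36e-08), Rpl22l1, a paralog of a large-subunit protein, 4.29-fold and Rpl10, which finishes the large subunit, 1.67-fold. The array identifier of the Rps10 probeset, like those of several others on the list, gives no chromosome. The list also holds paralogs, among them Rpl22l1 and the 1 gene that rose, Rps27l, and by its symbol a pseudogene, Rps7-ps20. Of the 78 genes 4 were at background on all arrays of both groups. Ribosomal protein genes have many near-identical copies in the genome, and whether the array keeps them apart was not tested.

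Of 13 genes for eIF2 kinases, phosphatase subunits and their partners, 3 fell and 3 rose (23.1% each way, against 7.87% and 7.61% of all tested probesets). In the fit of bright probesets it was 30.8% each way, against 17.4% and 17.9%. Ppp1r15b, the constitutive regulatory subunit of the phosphatase that reactivates eIF2, read 9.20, 9.27, 9.15, 9.07 and 9.01 in ShBNIP3, against 10.38, 10.29, 10.28, 10.19 and 10.40 in ShCtrl. Its groups were tight and separate, a 2.25-fold fall (log2 -1.17, SE 0.10, limma adjusted p = 1.56e-05). The stress-induced subunit Ppp1r15a (GADD34) fell 4.67-fold (log2 -2.22, SE 0.30, limma adjusted p = 0.000318). Atf4, the transcription factor whose translation rises when eIF2 is phosphorylated, fell 1.93-fold (log2 -0.94, SE 0.15, limma adjusted p = 0.00103).

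In the mTORC1 and S6 kinase pathway 3 of 30 measured genes rose (10.0%) and 5 fell (16.7%), with a median difference of -0.08. In the fit of bright probesets 11.1% rose and 22.2% fell, near the 17.9% and 17.4% of that fit. Lamtor1, the lysosomal anchor of the complex that recruits mTORC1, fell 2.30-fold (log2 -1.20, SE 0.15, limma adjusted p = 0.000165). Rraga, a GTPase it anchors, rose 1.68-fold (log2 0.75, SE 0.14, limma adjusted p = 0.00355). Castor2, the relative of an arginine sensor, was at background in ShCtrl and rose at least 1.05-fold (limma adjusted p = 0.00342). It was near background in ShBNIP3 too, with 6.58 and 6.54 on arrays 7 and 9, under their background limits of 6.67 and 6.73. Of 11 mitochondrial translation factor genes 2 rose (18.2%) and 1 fell (9.09%). In the fit of bright probesets 2 of 10 rose and 2 fell, near the 17.9% and 17.4% of that fit, and nothing is read from these shares. The genes that rose were the elongation factor gene Gfm1 (1.58-fold) and Mtfmt, which formylates the initiator tRNA (1.39-fold). The gene that fell was the ribosome recycling gene Mrrf (1.36-fold). The call of Mrrf was lost in each fit that left out 1 array and after quantile normalization, and that of Mtfmt without ShCtrl array 2, ShCtrl array 5 or ShBNIP3 array 9.

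The remaining lists are small, with at most 2 genes called in a direction, and nothing is read from their shares beside the 17.9% and 17.4% of bright probesets called higher and lower. Ribosome rescue and quality control genes had 2 of 10 higher and 2 lower. Denr, which helps recycle small subunits and reinitiate, rose 1.63-fold, and the helicase gene Ascc3, which takes apart collided ribosomes, rose 1.58-fold. The rescue GTPase gene Gtpbp2 fell 1.83-fold and Mcts1 1.45-fold, the latter close to the threshold (limma adjusted p = 0.0485). Of 7 partners of the poly(A) tail, 1 rose, the release factor paralog Gspt2 (1.66-fold), and 1 fell, the deadenylation adaptor Tob2 (2.45-fold). Of 6 genes for the making of diphthamide, the modified residue of eEF2, and hypusine, 2 rose, Dph6 (2.19-fold) and Dph3 (1.65-fold), and 0 fell.

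**Figure D5:**
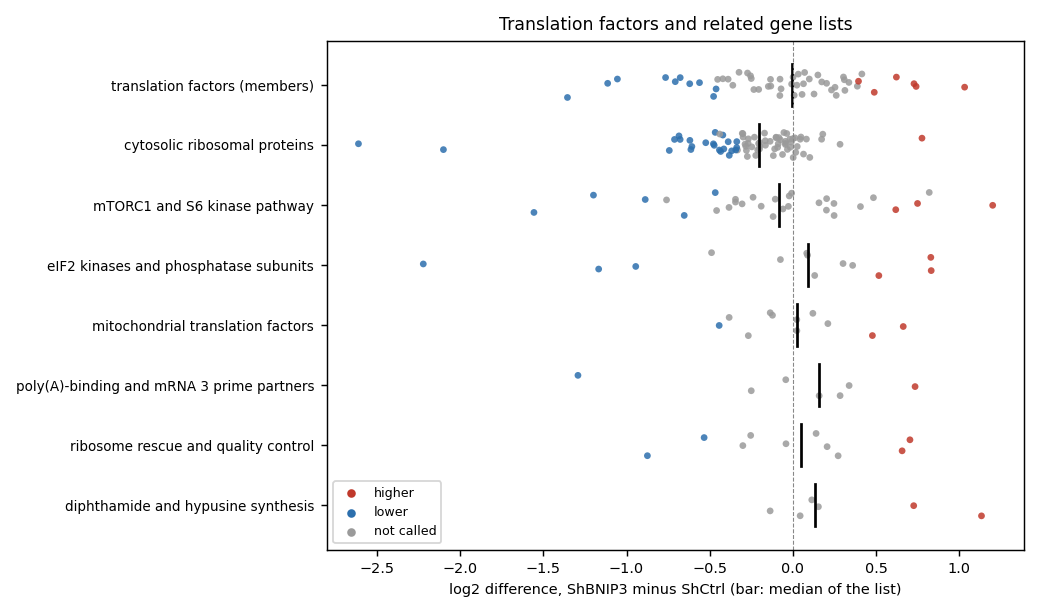
Log2 differences (x axis, ShBNIP3 minus ShCtrl) of the 54 translation factor genes and of the genes of 7 related lists, 1 point a gene, coloured by call, with a black bar at the median of each list. The translation factors are centred at 0.00 with called genes on both sides, and the ribosomal protein genes are centred at -0.20 with 1 called gene above 0.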

How the data were processed

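RNA of 10 samples, 5 ShBNIP3 and 5 ShCtrl by their titles, was labelled with the GeneChip WT Plus kit, per the labels' protocols. The extraction text of the same labels also describes mouse disc tissue, at odds with the rat cells and the knockdown named in their other fields, so groups were taken from the titles. The deposited values are log2 levels that the authors made by sst-rma normalization, per the labels, with the Transcriptome Analysis Console, per the submitters' processing notes, whose version is not given in the sources used here. The table holds 24834 probesets. The 1646 control probesets were left out. Gene symbols come from the platform annotation, where 15049 probesets have 1 symbol, 0 several and 8139 none, and all Entrez identifiers were found in RefSeq (GRCr8).

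Differences were tested with limma 3.58.1 (lmFit, eBayes) in R 4.3.3 over 23188 probesets, with Benjamini-Hochberg adjustment, tested on simulated data. A probeset was at background in a group when under the 95th percentile of the 23 background probesets on each of its arrays. A fold against a group at background is given as at least that size. Sources give no batch. The number of arrays limits the precision. The members and lists, and the arrays left out together, were chosen with earlier results of these data known. Named in full were called members (at most 30) and a fixed set of core factors, and of each related list the 3 genes with the smallest adjusted p. Some other called genes of these lists are named beside them. Alternatives were another variance model, array weights, quantile normalization, median centring, fits of bright or named probesets, and arrays left out. Planned comparisons of protein sequences were not made.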

Additional observations from a re-analysis of the deposited data

Results flagged for a closer look

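In 5 of 108 groups (54 genes in 2 groups each) 1 array lay far from the other 4 of its group, by the gap to the nearest array as a share of the range. Chance gives about 1 in 20. All 5 were on ShBNIP3 array 10 or ShCtrl array 4. On ShBNIP3 array 10, Eif4ebp1 was at 13.58 with the nearest array at 14.22, Eif5a was at 16.82 with the nearest at 17.11, and Eif4enif1 was at 11.49 with the nearest at 11.24. On ShCtrl array 4, Eif4e3 was at 8.41 with the nearest at 6.29, and Eif2b3 was at 11.25 with the nearest at 10.24.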

How the results depend on the processing

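Of the 16 called genes 12 were called in all 10 fits that left out 1 array, and Eif2b3, Eif4a3, Eif3e and Eif4a1 were not. No called gene changed direction in any alternative run. The number of called translation factor genes was 12 to 17 with 1 array left out, 18 without ShCtrl array 4 and ShBNIP3 array 10, and 16 to 21 in the other alternatives, the highest in the fit of bright probesets, which tests fewer probesets. That fit added Eef2, Eif3b, Eif6, Etf1 and Gspt1. Probesets called overall numbered 2746 to 3960 with 1 array left out, 4622 without arrays 4 and 10 and 4595 with array weights, against 3590. The difference of Bnip3 was -3.53 to -2.87 with 1 array left out. Without arrays 4 and 10 the calls of Eif4a1 (adjusted p = 0.0572) and Eif4a3 (adjusted p = 0.0805) were lost, and Eif2b2, Eif4ebp2, Etf1 and Gspt1 were called. Quantile normalization took away the call of Eif2b3 (adjusted p = 0.0529), added that of Gspt1, and gave a difference of -0.14 for Eef2, against -0.27. The counts of the related lists under each alternative were added after seeing the data. No paired analysis was made, because the labels do not say which cultures or rats the arrays came from. Whether arrays of the 2 groups are paired is therefore not known.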
